A study of Homo sapiens with 12 samples.

Results

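The difference between the drug responses of 2 human cell lines labelled as multiple myeloma, U266 and 8226R5, was examined gene by gene. The lines are named as the labels give them, and 6 of 10 plasma cell markers were not above background in the libraries labelled 8226R5. The identity of that line was not tested. For each gene the response was the log2 signal with PRIMA-1Met minus that with its solvent DMSO, and the difference in response was the U266 value minus the 8226R5 value. It uses 8 of the 12 arrays of the series. It was tested for 10723 genes, and a difference was called for 3105 of them (29.0%) at an adjusted p under 0.05. The called genes were put into classes by their response in each line: U266 only, 8226R5 only, opposite directions, or the same direction with unequal size.

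Both lines received 40 µM PRIMA-1Met for 8 h, and controls received DMSO. Each of the 4 groups had 2 Illumina HumanHT-12 arrays of total RNA. U266 is labelled p53 mutant and 8226R5 (written 8266R5 in one label) p53 null. The series holds 1 line of each p53 status, so p53 status and every other feature of a line cannot be told apart. The third line, MM.1S, received another dose and is not used here.

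PRIMA-1Met (APR-246) is converted in cells to a product that binds thiols of cysteine residues. It was developed to return mutant p53 to an active shape, and it is also known to deplete glutathione. Metallothioneins are small proteins that hold zinc and copper on their many cysteines, and their genes are switched on by the zinc sensor MTF1 through metal response elements in their promoters. Heat shock chaperones, NRF2 target enzymes and the ATF4 pathway are other defences against damaged proteins, oxidants and amino acid shortage. U266 cells are known to produce IL-6, a growth factor of myeloma cells that signals through IL6ST, JAK1 and STAT3.

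The genes that separated the lines most were metallothioneins. The RefSeq promoters of 3 of them and of the zinc exporter gene SLC30A1, another known MTF1 target, are shown because these genes moved apart from each other. Each window spans 300 bases around the start of the gene, most of them upstream, on the GRCh38.p14 assembly, 5′ to 3′ on the strand of the gene. Capitals mark matches to the core of the metal response element, searched as TGCACNC or TGCGCNC on both strands, where N is any base; matches may overlap. MT1H lies at chr16:56669564-56669863 on the plus strand, MT1X at chr16:56682220-56682519 on the plus strand, MT2A at chr16:56608334-56608633 on the plus strand and SLC30A1 at chr1:211579112-211579411 on the minus strand.
MT1H: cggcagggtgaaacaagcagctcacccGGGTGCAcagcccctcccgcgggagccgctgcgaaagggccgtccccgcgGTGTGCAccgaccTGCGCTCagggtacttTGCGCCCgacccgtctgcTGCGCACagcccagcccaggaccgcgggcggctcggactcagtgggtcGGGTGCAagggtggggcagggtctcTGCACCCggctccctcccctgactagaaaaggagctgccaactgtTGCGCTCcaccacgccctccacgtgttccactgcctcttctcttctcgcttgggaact
MT1X: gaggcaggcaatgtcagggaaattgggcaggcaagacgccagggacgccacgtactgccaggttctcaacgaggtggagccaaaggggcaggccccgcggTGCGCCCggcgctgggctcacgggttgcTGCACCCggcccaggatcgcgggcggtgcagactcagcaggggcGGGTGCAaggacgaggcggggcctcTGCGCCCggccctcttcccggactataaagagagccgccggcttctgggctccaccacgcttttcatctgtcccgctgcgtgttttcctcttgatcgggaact
MT2A: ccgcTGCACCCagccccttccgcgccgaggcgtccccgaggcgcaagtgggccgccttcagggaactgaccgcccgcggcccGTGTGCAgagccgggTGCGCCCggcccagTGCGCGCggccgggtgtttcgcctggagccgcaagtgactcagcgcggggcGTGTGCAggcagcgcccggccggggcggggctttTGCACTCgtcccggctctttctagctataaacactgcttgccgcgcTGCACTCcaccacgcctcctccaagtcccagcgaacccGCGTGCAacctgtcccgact
SLC30A1: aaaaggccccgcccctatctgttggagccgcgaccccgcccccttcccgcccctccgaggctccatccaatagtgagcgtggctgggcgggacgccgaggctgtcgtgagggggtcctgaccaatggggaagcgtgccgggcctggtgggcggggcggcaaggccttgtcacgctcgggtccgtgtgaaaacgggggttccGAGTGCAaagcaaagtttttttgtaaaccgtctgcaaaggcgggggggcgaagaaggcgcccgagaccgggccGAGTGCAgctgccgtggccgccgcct
MT1H and MT2A each held 8 matches, MT1X held 4 and SLC30A1 held 2. Of 35116 promoters of this length, 8.6% held at least 2 matches, 0.601% at least 4 and 0.0199% at least 8. A match is a description of the sequence, not a measured site.

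Before the results, the arrays themselves differed. In U266 the number of probes above background (detection p under 0.01) was 16025 and 15849 in the controls and 14982 and 14197 with the drug. In 8226R5 it was 14336 and 14164 in the controls and 14988 and 15730 with the drug. The 90th percentile of signal moved the same way, from 904 and 906 intensity units to 549 and 522 in U266, and from 697 and 705 to 870 and 865 in 8226R5. Brightness therefore fell in U266 and rose in 8226R5, the direction of the 269 opposite genes up in 8226R5 and not of the 155 up in U266. Its part in these responses was not tested. The values compared here were quantile normalized, so a response is relative to the array and a change in all RNA would not be seen. In bulk RNA, fewer cells of a kind and less RNA per cell cannot be told apart.

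The labels call both lines myeloma, a cancer of plasma cells. Of 10 plasma cell markers, 9 were above background on both control arrays of U266 and 4 in 8226R5. TNFRSF17 (BCMA), the receptor targeted by several myeloma therapies, had a mean log2 signal of 14.17 in U266 controls and 4.34 in 8226R5 controls, and IRF4, POU2AF1, JCHAIN, CD38 and SLAMF7 were not above background in 8226R5. Of 28 markers of other cell types with a probe, 7 were above background in U266 controls and 12 in 8226R5 controls. Among the latter were the T cell gene CD3D (12.1) and the epithelial gene EPCAM (13.47). Other genes of these 2 kinds were dimmer there: CD3E read 7.53, KRT8 7.51 and KRT18 6.81. CD2 and KRT19 were not above background in 8226R5, and CD2 was in U266 controls (6.63). The summed linear level of the 17 tested markers was 20930 and 20590 in U266 controls, 13530 and 13540 with the drug, 36710 and 36930 in 8226R5 controls, and 36860 and 35760 with the drug. VIM, which many cell types express, made up most of the sum in U266, with 19240 and 18880 linear units in controls and 10970 and 10970 with the drug. Without VIM the sum in U266 was 1688 and 1709 in controls and 2559 and 2571 with the drug, so it was higher with the drug. In 8226R5 it was then 18600 and 17440 in controls, and 17910 and 17210 with the drug. MS4A1 and PAX5, which define B cells, were not above background in any group. The part of these differences between the lines in the responses was not tested.

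U266 responded more widely. Its response was called for 4050 genes (37.8%), 1834 higher and 2216 lower with the drug, against 1921 (17.9%) in 8226R5, 835 higher and 1086 lower. As shares of tested genes these were 17.1% and 20.7% in U266, and 7.79% and 10.1% in 8226R5. The study counted a gene as modulated at a 2-fold change: 268 genes (2.5%) passed that in U266 and 63 (0.588%) in 8226R5. Of these, 248 did so in U266 alone, with a called difference for 231, and 43 in 8226R5 alone, with a called difference for 32. Another 20 passed it in both lines, 17 with the same sign and 3 with opposite signs. The difference in response was above 0 for 1546 genes (14.4%) and below 0 for 1559 (14.5%), and its median over all genes was 0.02. It reached 2-fold for 402 genes (3.75%), and 397 of all genes (3.7%) had both a called difference and at least 1 log2 unit.

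Of the 3105 genes, 1775 (16.6% of tested genes) responded in U266 only, 869 up (8.1%) and 906 down (8.45%). Another 506 (4.72%) responded in 8226R5 only, 211 up (1.97%) and 295 down (2.75%). In 424 (3.95%) the responses were opposite, 155 up in U266 (1.45%) and 269 up in 8226R5 (2.51%). Both lines moved the same way but unequally in 127 (1.18%), and in 273 (2.55%) neither line's own response was called. Of the 127, 54 rose more (0.504%) and 49 fell more (0.457%) in U266, and 6 rose more (0.056%) and 18 fell more (0.168%) in 8226R5. These classes lean on thresholds, and single arrays mattered: without U266 control replicate 1 the called differences numbered 2057, and without the 8226R5 drug replicate 1 or 2 the opposite class held 161 or 160 genes. Of the 424 opposite genes, 85 were called opposite whichever of the 8 arrays was left out, and 1643 of the 3105 differences were called each time.

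**Figure D1:**
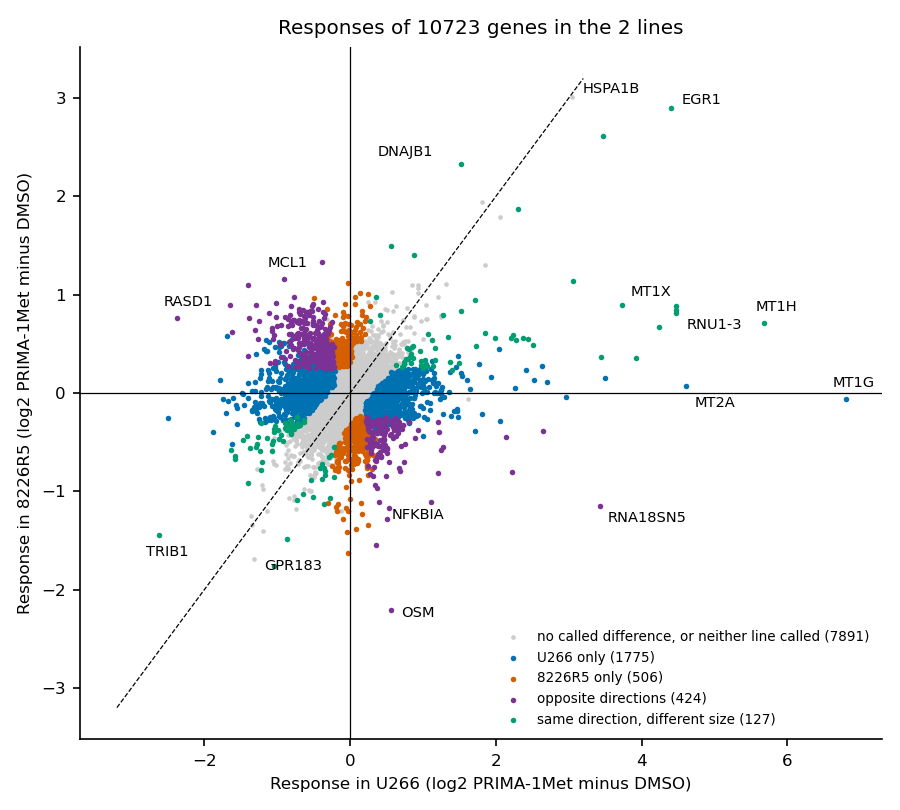
Response in U266 (x axis) against response in 8226R5 (y axis) for 10723 genes, both as log2 PRIMA-1Met minus DMSO, with 1 point per gene coloured by class and the dashed line at equal response. Metallothioneins and small nuclear RNAs lie far to the right near or above the x axis, HSPA1B lies on the line, and the opposite class fills the upper left and lower right.

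Metallothionein genes rose in U266 and rose little or did not pass the test in 8226R5. Of 9 tested genes of the metal response list, the difference was called above 0 for 6 and below 0 for 0, with a median of 2.84. The shares over all genes were 14.4% and 14.5%. MT1G gave 5.94 and 6.07 in U266 controls, 12.76 and 12.84 with the drug, 6.95 and 7.02 in 8226R5 controls, and 6.93 and 6.92 with the drug. The U266 groups are far apart, while those of 8226R5 lie close together. MT1G was not above background in U266 controls, so its rise there was at least 84.7-fold (adjusted p = 7.65e-10 by limma), against -0.06 ± 0.08 (SE, n = 2 arrays per group) on the log2 scale in 8226R5. The difference was at least 6.46 (adjusted p = 1.38e-08).

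MT2A read 6.46 and 6.55 in U266 controls, 11.09 and 11.15 with the drug, 12.80 and 12.77 in 8226R5 controls, and 12.89 and 12.83 with the drug. Its untreated level in 8226R5 was thus above its treated level in U266. The response was 4.61 ± 0.07 in U266 and 0.07 ± 0.07 in 8226R5, a difference of 4.54 ± 0.11 (SE; adjusted p = 1.4e-07). MT1E showed the same difference from a low untreated level in both lines: 7.07 and 6.99 rose to 10.58 and 10.48 in U266, while 8226R5 gave 6.62 and 6.82 in controls and 7.0 and 6.75 with the drug. MT1E differed by 3.35 ± 0.15 (adjusted p = 4.35e-06).

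MT1X rose in both lines and more in U266, where 6.59 and 6.5 became 10.21 and 10.34, than in 8226R5, where 10.75 and 10.72 became 11.70 and 11.57. The responses were 3.73 ± 0.08 and 0.90 ± 0.08, a difference of 2.84 ± 0.12 (adjusted p = 3.23e-06). MT1H, not above background in the controls of either line, rose at least 17.4-fold in U266. MT1F rose at least 1.42-fold in U266, from controls not above background, and its 8226R5 value was 0.17 log2 units. The coding sequences of these genes are close copies, so a probe may read more than one of them. MTF1, the zinc sensor itself, rose in both lines, by 0.50 and 0.51, with a 95% interval of the difference from -0.30 to 0.29. SLC30A1, the exporter whose promoter is shown above, fell by 0.24 in U266 and read 0.03 in 8226R5, and its difference was not called (adjusted p = 0.118).

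**Figure D2:**
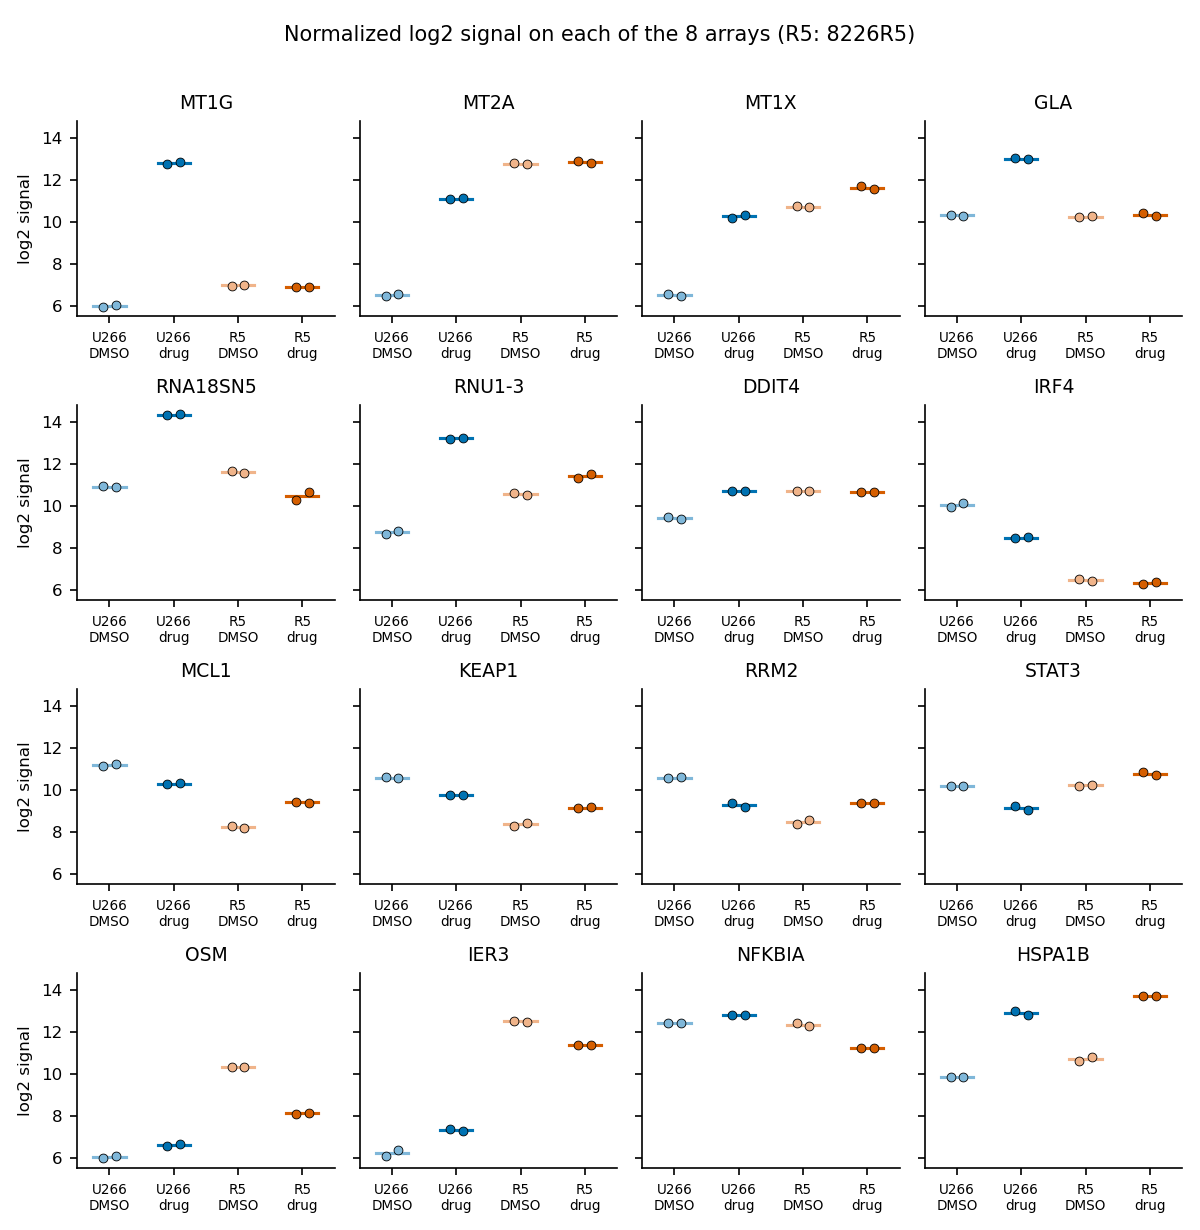
Normalized log2 signal of 16 genes on each of the 8 arrays, with DMSO and drug groups of U266 in blue and of 8226R5 (R5) in orange; points are arrays and bars are group means of 2 arrays. MT1G moves in U266 alone, MT2A starts high in 8226R5, MCL1, KEAP1, RRM2 and STAT3 move in opposite directions, and HSPA1B rises in both lines.

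Small nuclear and ribosomal RNAs formed the other large difference. Small nuclear RNAs are the RNA parts of the spliceosome, and 7SK restrains transcription elongation. Of 16 tested members, the difference was called above 0 for 14 and below 0 for 0, against 14.4% and 14.5% of all genes. Its median was 1.91. The U1 copy RNU1-3 read 8.67 and 8.82 in U266 controls, 13.18 and 13.26 with the drug, 10.63 and 10.53 in 8226R5 controls, and 11.33 and 11.52 with the drug. It rose by 4.47 ± 0.09 in U266 and by 0.84 ± 0.09 in 8226R5, a difference of 3.62 ± 0.13 (adjusted p = 1.78e-06). The U1 copies RNVU1-7 and RNVU1-18 rose by the same 4.47 in U266, and near-identical copies cannot be told apart on this array. RNU4-2 (U4) differed by 3.57, RNU6-1 (U6) by 3.08 and RN7SK by 1.90.

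The ribosomal RNA probes moved in opposite directions. RNA18SN5 (18S) read 10.95 and 10.90 in U266 controls, 14.33 and 14.37 with the drug, 11.66 and 11.55 in 8226R5 controls, and 10.27 and 10.65 with the drug. It rose by 3.42 ± 0.12 in U266 and fell by 1.15 ± 0.12 in 8226R5, the largest opposite difference among tested genes (4.57 ± 0.17, adjusted p = 1.86e-06). RNA28SN5 (28S) rose by 2.65 in U266 and fell by 0.39 in 8226R5, and its second probe read 1.70 and -0.20. The minor spliceosome RNA RNU4ATAC rose by 2.22 and fell by 0.80. SNORD3D, a copy of the U3 RNA of ribosomal RNA processing, rose in U266 only, by 2.52 ± 0.07, against 0.13 ± 0.07. Most of these RNAs carry no poly(A) tail, and the labelling kit named in the labels primes from that tail. ACTB, a housekeeping mRNA, gave 3 probes that read -1.84, -0.60 and -0.46 in U266 and 0.67, 0.16 and 0.27 in 8226R5. The part of labelling and of RNA quality in these values was not tested.

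Among the remaining genes that rose in U266 only, GLA led those above background in all groups. GLA encodes the lysosomal enzyme alpha-galactosidase A. It read 10.35 and 10.29 in U266 controls and 13.03 and 13.02 with the drug, while the 4 arrays of 8226R5 lay between 10.22 and 10.44. GLA differed by 2.59 ± 0.12 (adjusted p = 4.3e-06). DUSP1, a phosphatase that switches off MAP kinases, rose by 2.04 ± 0.14 in U266 against 0.44 ± 0.14. NR4A2, an inducible nuclear receptor, rose at least 2.83-fold against -0.38 ± 0.12. Their 8226R5 responses missed the threshold narrowly (adjusted p = 0.0604 and 0.0522 by limma), so their class leans on it. NR4A2 kept the class in 11 of 19 alternative settings, and its second probe read 1.06 in U266 and -0.56 in 8226R5. MAFF, a small MAF transcription factor, rose by 1.48, but its second probe read 0.11 in U266 and 0.43 in 8226R5. HOPX, not above background in U266 controls or in 8226R5, rose at least 3.07-fold in U266. Without the filter on dim probes, HOPX was represented by another probe that the filter had removed. The difference on that probe read -0.19 (adjusted p = 0.872).

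DDIT3 and DDIT4 rose in U266 toward the level that 8226R5 held untreated. DDIT3 (CHOP) is a death-linked factor of the ATF4 pathway, and DDIT4 (REDD1) restrains mTOR. DDIT4 read 9.47 and 9.40 in U266 controls, 10.71 and 10.73 with the drug, and between 10.66 and 10.72 on all 8226R5 arrays. Its difference was 1.33 ± 0.10 (adjusted p = 0.000118). DDIT3 rose from 9.01 and 9.06 to 10.21 and 10.23 in U266 and read 10.62 to 10.71 in 8226R5, a difference of 1.11 ± 0.10 (adjusted p = 0.000205). The whole ATF4 list was mixed: of 28 tested genes, 5 had a difference above 0 and 6 below 0, against 14.4% and 14.5% of all genes. PSPH, a serine synthesis enzyme, fell by 0.49 in U266 and rose by 0.31 in 8226R5.

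The 6 genes down in the U266 only class with the largest difference between the lines were SLC25A24, CCR2, RHOU, SGPP1, PDE4DIP and FRMD6, and none was above background in 8226R5. For these, and for 211 of the 1775 genes of the class, no response could be measured in 8226R5. CCR2, a chemokine receptor, fell in U266 from 10.32 and 10.35 to 7.78 and 7.90. Among genes above background in all groups, chosen after their values were seen, the largest differences were TMPO, GLDC and AMACR. GLDC, a subunit of the glycine cleavage system, fell by 1.68 in U266, from 10.86 and 10.84 to 9.17 and 9.17, and read 7.66 and 7.89, then 7.58 and 7.81, in 8226R5. TP53INP1, a p53 target, fell by 1.30 ± 0.09 in U266 against 0.11 ± 0.09, a difference of -1.41 ± 0.13 (adjusted p = 0.000274).

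Of 23 tested plasma cell genes, 13 fell and 3 rose in U266, against 20.7% and 17.1% of all genes. In 8226R5, 6 of them fell and 2 rose, against 10.1% and 7.79% of all genes. The difference was above 0 for 4 and below 0 for 10, against 14.4% and 14.5% of all genes. IRF4, the transcription factor on which myeloma cells depend, read 9.95 and 10.13 in U266 controls and 8.48 and 8.51 with the drug, so it fell by 1.55 ± 0.09 (adjusted p = 1.01e-05). TNFRSF17 fell by 1.23, POU2AF1 by 1.18 and JCHAIN by 1.08 in U266, and none of the 4 had a measurable response in 8226R5. XBP1, which drives the secretory programme, was present in both lines. It fell by 0.85 ± 0.08 in U266 and rose by 0.28 ± 0.08 in 8226R5 (difference -1.13 ± 0.11, adjusted p = 0.000305), and its second probe had the same signs. Its rise in 8226R5 was near the threshold (adjusted p = 0.0394), and XBP1 kept the opposite class in only 10 of 20 alternative settings. IKZF3, a lymphoid factor degraded by lenalidomide, fell by 0.73 and rose by 0.33. PRDM1 (BLIMP1) fell in both lines and more in 8226R5, by 0.86 and 1.48, and MZB1 rose by 0.25 in U266 and fell by 0.75 in 8226R5.

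Interferon response genes with a called difference mostly had a lower response in U266 than in 8226R5. Of 33 tested genes, 13 had a difference below 0 and 4 above 0, against 14.5% and 14.4% of all genes. Of those 17, 15 belonged to the U266 only class, as did 1775 of the 3105 called differences over all genes. IFI44L read 10.60 and 10.56 in U266 controls, 9.47 and 9.44 with the drug, 7.61 and 7.59 in 8226R5 controls, and 7.68 and 7.77 with the drug. Its difference was -1.25 ± 0.10 (adjusted p = 0.000155), that of IFIT3 was -0.94 ± 0.12 and that of OAS3 was -0.87 ± 0.12. ISG20 and OAS1 went the other way and rose in U266, by 0.62 and 0.35. IRF1 fell by 1.34 in each line (95% interval of the difference -0.25 to 0.25). In the HLA and antigen presentation list 5 of 21 genes had a difference below 0 and 1 above, against 14.5% and 14.4% of all genes. The largest was that of the peptide transporter TAP1, which fell by 0.93 in U266 and read -0.09 in 8226R5.

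Genes that responded in 8226R5 only were fewer and changed less. The 6 genes down in 8226R5 only with the largest difference between the lines were GPR183, LPAR6, TSC22D1, MIR503HG, SNORA24 and VSIR, of which only TSC22D1 and SNORA24 were above background in U266. TSC22D1, a leucine zipper factor, read 10.34 and 10.51 in 8226R5 controls and 9.01 and 9.07 with the drug, while the U266 arrays lay between 7.33 and 7.48. It fell by 1.38 ± 0.09 in 8226R5, against 0.08 ± 0.09 in U266 (difference 1.47 ± 0.12, adjusted p = 0.000165). GPR183, an oxysterol receptor that guides B cells, fell by 1.63 from 10.68 and 10.75 to 9.11 and 9.07. DUSP6, the phosphatase of ERK, fell by 1.28 ± 0.10 against -0.10 ± 0.10 in U266 (difference 1.18 ± 0.14, adjusted p = 0.000797).

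Of the 6 genes up in 8226R5 only with the largest difference, PIM3 and SPMAP1 were not above background in U266 or in 8226R5 controls. The rise in 8226R5 was thus at least 1.01-fold for PIM3 and has no fold for SPMAP1. P2RY11, a receptor for ATP, rose from 7.51 and 7.22 to 8.53 and 8.46, by 1.12 ± 0.12, and read 9.35 to 9.57 in U266 (difference -1.16 ± 0.17, adjusted p = 0.00185). ING3, a subunit of a histone acetyltransferase complex, rose by 0.91 ± 0.08 against -0.07 ± 0.08, and its second probe read 0.31 and -0.30. The other 2 were PDIA3P1 and PRR11. For 80 of the 506 genes of the class, no response could be measured in U266.

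A response called in one line is not by itself a zero response in the other. In the U266 only class the 95% interval of the 8226R5 response lay within 0.5 log2 units of 0 for 1576 of 1775 genes (88.8%). In the 8226R5 only class the U266 interval did so for 471 of 506 (93.1%). Both counts follow largely from the class rule, under which the response of the other line was not called. The classes include the 211 and 80 genes not above background in the other line, where no response could be measured. The fitted value in the other line had the opposite sign for 1242 and 400 genes. Choosing genes by a called difference favours such signs, so no opposite response is read from these counts.

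Opposite responses were called for 424 genes, of which 366 were above background in at least 1 group of each line. The others had no measurable response in one line. In all 4 groups, 115 of the 155 genes up in U266 and 203 of the 269 up in 8226R5 were above background. Over all 424 the responses were mostly small, and 183 differed by at least 1 log2 unit. For genes up in U266 the medians were 0.41 in U266 and -0.39 in 8226R5. For genes up in 8226R5 they were -0.49 and 0.49. The share of genes in this class varied from 3.31% to 4.85% over 5 bins of expression level.

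Several genes of cell survival and signalling fell in U266 and rose in 8226R5. MCL1, the BCL2 relative on which myeloma cells often depend, read 11.17 and 11.26 in U266 controls, 10.30 and 10.32 with the drug, 8.3 and 8.2 in 8226R5 controls, and 9.43 and 9.39 with the drug. It fell by 0.91 ± 0.08 and rose by 1.16 ± 0.08, a difference of -2.06 ± 0.11 (adjusted p = 1.17e-05). Its second probe read -1.60 in U266 and 0.16 in 8226R5. BAX, which opens the mitochondrial outer membrane, fell by 0.67 and rose by 0.73, and its second probe read -0.15 and 0.22. BCL2 moved the other way, by 0.33 and -0.31, and BCL2L1 (BCL-XL) fell by 1.00 in U266 and read 0.05 in 8226R5, near the top of the array's range there (15.71 to 15.88). Over the BCL2 family, 3 of 17 genes had a difference above 0 and 5 below, against 14.4% and 14.5% of all genes.

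The kinase JAK1 and its target STAT3, which relay the IL-6 signal, went the same way as MCL1. STAT3 read 10.20 and 10.18 in U266 controls, 9.22 and 9.03 with the drug, 10.21 and 10.26 in 8226R5 controls, and 10.86 and 10.71 with the drug. The untreated levels lie close together and the treated ones far apart. STAT3 fell by 1.06 ± 0.09 and rose by 0.55 ± 0.09 (difference -1.61 ± 0.13, adjusted p = 0.000133), and JAK1 fell by 0.71 ± 0.12 and rose by 0.61 ± 0.12 (difference -1.32 ± 0.17, adjusted p = 0.00106). The receptor chain IL6ST fell by 1.13 in U266 and read -0.03 in 8226R5, and the kinase PIM2 fell by 1.35 against 0.02. IL6 itself fell in both lines, by 1.58 in U266 and at least 1.16-fold in 8226R5.

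The cytokine genes OSM and IL10 moved the reverse way, up in U266 and down in 8226R5. OSM encodes oncostatin M, an IL-6 family cytokine. OSM read 6.02 and 6.09 in U266 controls, 6.56 and 6.67 with the drug, 10.33 and 10.35 in 8226R5 controls, and 8.11 and 8.16 with the drug. It fell by 2.21 ± 0.08 in 8226R5 and rose at least 1.16-fold in U266, where controls were not above background (difference at least 2.43, adjusted p = 2.33e-06). IL10 rose by 0.35 and fell by 0.69, with all 8 arrays between 11.94 and 12.80. Over the cytokine and JAK-STAT list, 6 of 24 genes had a difference above 0 and 11 below, and 7 were in the opposite class. The shares over all genes were 14.4%, 14.5% and 3.95%.

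NF-kB feedback genes split the lines too. NFKBIA, the inhibitor that holds NF-kB in the cytoplasm, started at close levels in both lines: 12.41 and 12.45 in U266 controls and 12.41 and 12.29 in 8226R5 controls. With the drug it read 12.83 and 12.82 in U266 and 11.25 and 11.23 in 8226R5. It rose by 0.40 ± 0.07 and fell by 1.11 ± 0.07, a difference of 1.51 ± 0.10 (adjusted p = 8.25e-05). IER3 fell by 1.11 from 12.52 and 12.49 in 8226R5 and rose at least 1.92-fold in U266, and BIRC2 (cIAP1) rose by 0.89 and fell by 0.45. TNFAIP3 (A20), another feedback inhibitor, fell in both lines, by 1.36 and 1.25, with a 95% interval of the difference from -0.35 to 0.11. TNF was in the opposite class but was not above background in U266, so no response could be measured there. Of 27 genes of the NF-kB list, 8 had a difference above 0, 4 below, and 5 were in the opposite class. The shares over all genes were 14.4%, 14.5% and 3.95%.

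**Figure D3:**
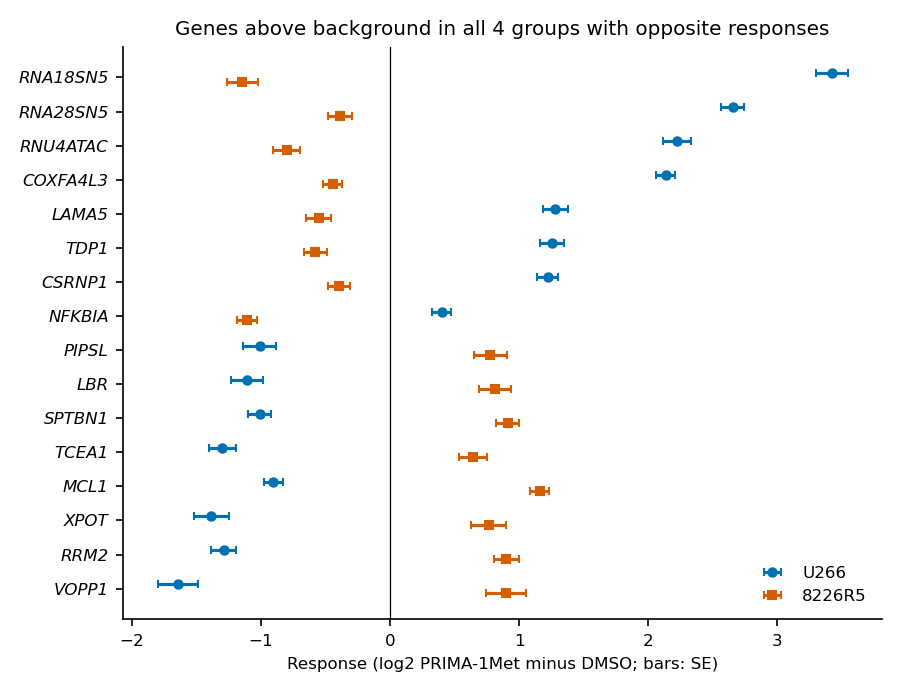
Response in U266 (blue circles) and 8226R5 (orange squares) of the 8 genes with the largest opposite difference in each direction among genes above background in all 4 groups; the x axis is log2 PRIMA-1Met minus DMSO and bars are standard errors (2 arrays per group). RNA18SN5 has the widest gap and NFKBIA the narrowest of those up in U266.

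The responses of KEAP1 and several NRF2 targets were lower in U266 than in 8226R5. KEAP1 holds NRF2, the regulator of antioxidant enzymes, in check through reactive cysteines. It read 10.61 and 10.58 in U266 controls, 9.77 and 9.79 with the drug, 8.29 and 8.44 in 8226R5 controls, and 9.15 and 9.18 with the drug. It fell by 0.82 ± 0.08 and rose by 0.80 ± 0.08, a difference of -1.62 ± 0.11 (adjusted p = 7.89e-05), and its second probe read -0.57 and 0.58. Of 17 tested genes of the NRF2 list, 8 had a difference below 0 and 0 above, against 14.5% and 14.4% of all genes. In 8226R5, 9 of the 17 rose and 0 fell, where 7.79% and 10.1% of all genes did. In U266, 3 rose and 4 fell, close to the shares of all genes (17.1% and 20.7%). TKT and PGD, enzymes of the pentose phosphate pathway, fell by 0.32 and 0.27 in U266 and rose by 0.60 and 0.49 in 8226R5. GCLM, a subunit of the enzyme that starts glutathione synthesis, fell by 0.49 in U266 and read 0.29 in 8226R5. SRXN1 rose in both lines, by 0.63 and 0.89, with no called difference (95% interval -0.52 to -0.00).

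RRM2, the small subunit of ribonucleotide reductase, read 10.58 and 10.61 in U266 controls, 9.39 and 9.21 with the drug, 8.38 and 8.59 in 8226R5 controls, and 9.37 and 9.39 with the drug. Its levels were far apart untreated and close together with the drug. The difference was -2.19 ± 0.14 (adjusted p = 4.35e-05). Of 35 DNA replication genes, 6 had a difference below 0 and 1 above, and of 35 mitotic genes 7 were above and 6 below. Among all genes 14.5% were below and 14.4% above. VOPP1 fell by 1.64 ± 0.16 and rose by 0.90 ± 0.16, and its second probe read -1.82 and 0.76. RASD1, a Ras-like GTPase gene induced by dexamethasone, fell from 10.21 and 10.23 to 7.95 and 7.73 in U266. In 8226R5 its controls were not above background, so its rise there to 6.67 and 6.53 has no fold.

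Splicing factor genes leaned the same way. Of 21 CLK kinases and SR splicing factors, 11 had a difference below 0 and 0 above, against 14.5% and 14.4% of all genes. The median was -0.45. HNRNPH1 fell by 1.08 ± 0.12 in U266 and rose by 0.66 ± 0.12 in 8226R5 (difference -1.74 ± 0.17, adjusted p = 0.000291), and TRA2A fell by 0.56 and rose by 0.46. SRSF2 fell by 0.63 in U266 and read 0.11 in 8226R5. CLK1, a kinase that phosphorylates these factors, rose in both lines, by 0.36 and 0.98.

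**Figure D4:**
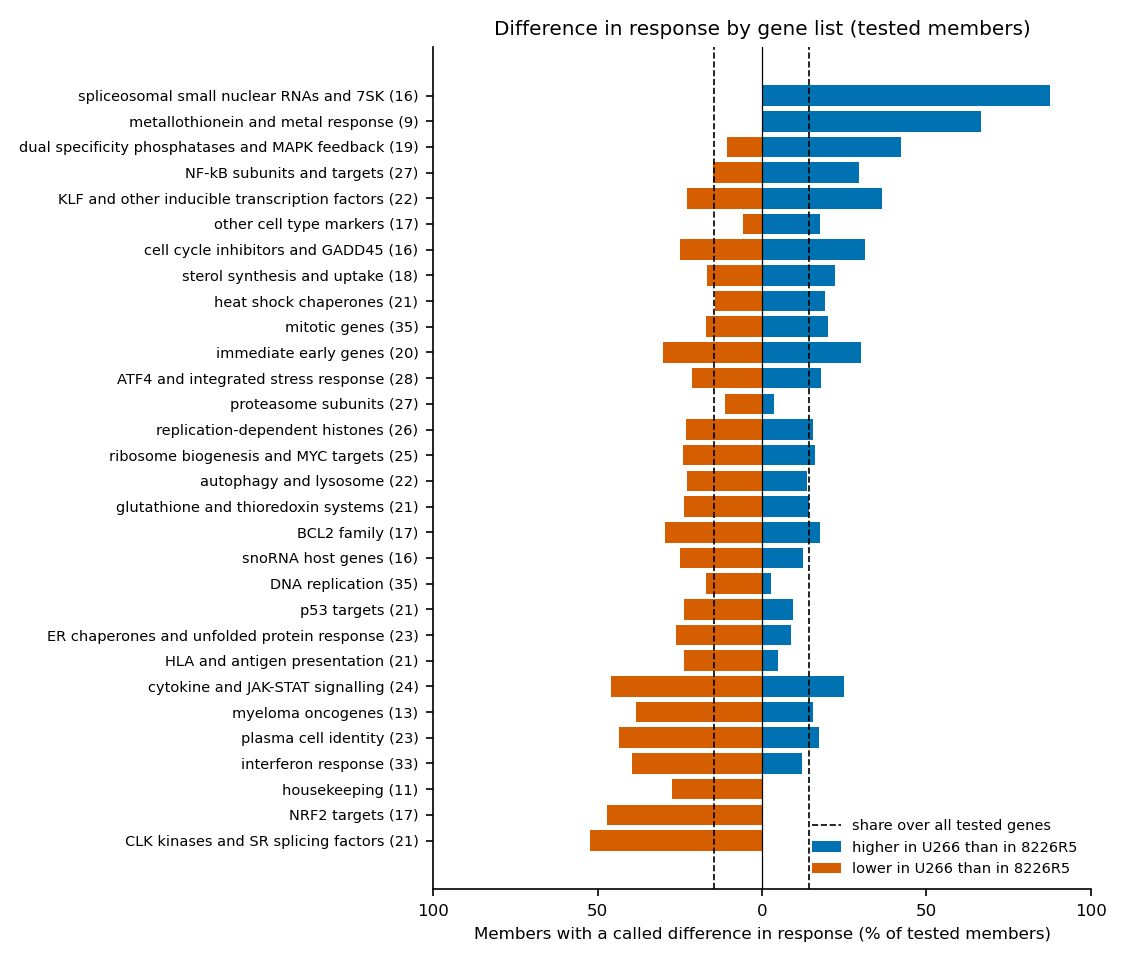
Share of the tested members of each of 30 gene lists (tested number in brackets) whose difference in response was called, to the right when higher in U266 and to the left when lower, with dashed lines at the shares over all tested genes (14.4% and 14.5%). Small nuclear RNAs and metallothioneins lie farthest right, and CLK and SR genes and NRF2 targets, like housekeeping genes, have no member on the right.

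Several stress responses were shared. The heat shock gene HSPA1B read 9.87 and 9.85 in U266 controls, 13 and 12.81 with the drug, 10.61 and 10.83 in 8226R5 controls, and 13.73 and 13.72 with the drug. The drug and control arrays are clearly apart in both lines. It rose by 3.04 ± 0.10 and 3.01 ± 0.10, with a 95% interval of the difference from -0.28 to 0.36. The co-chaperone BAG3 rose by 1.81 and 1.95 (interval -0.43 to 0.16). DNAJB1, which works with HSP70, rose more in 8226R5, by 2.33 ± 0.07 against 1.52 ± 0.07 (difference -0.81 ± 0.10, adjusted p = 0.000909), and HSPB1 fell by 0.44 in U266 and rose by 0.40 in 8226R5. Of 21 heat shock genes, 4 had a difference above 0 and 3 below, against 14.4% and 14.5% of all genes.

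Among same-direction genes the growth factor response gene EGR1 rose more in U266. It read 8.61 and 8.57 in 8226R5 controls and 11.49 and 11.48 with the drug. In U266 it rose at least 17.9-fold to 10.54 and 10.57, a difference of at least 1.26 (adjusted p = 7.95e-05). FOS rose by 2.61 in 8226R5 and at least 4.45-fold in U266, and the bound leaves the order of the lines unsettled. TRIB1, a pseudokinase, fell by 2.62 in U266 and 1.44 in 8226R5 (difference -1.18 ± 0.10, adjusted p = 0.000189). BHLHE40, a transcription repressor, fell more in 8226R5, by 1.76 against 1.05.

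No difference was called for the p53 targets CDKN1A, BBC3 and PMAIP1, the last not above background in U266. CDKN1A (p21) read -0.16 in U266 and -0.30 in 8226R5, with a 95% interval of the difference from -0.15 to 0.43. Of 21 p53 targets, 2 had a difference above 0, ZMAT3 and SESN1, and 5 below, against 14.4% and 14.5% of all genes. MYC fell by 1.41 ± 0.11 in 8226R5 from 12.71 and 12.72. In U266 it was not above background with the drug and fell at least 1.45-fold, so the lines' responses could not be ranked.

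Apart from housekeeping genes, the other lists gave called differences in both directions. Among all genes 14.4% were called above 0 and 14.5% below. Above and below 0 there were 6 and 6 of 20 immediate early genes, 8 and 2 of 19 dual specificity phosphatase and MAPK feedback genes, and 8 and 5 of 22 KLF and other inducible factors. There were 2 and 6 of 23 genes of ER chaperones and the unfolded protein response, 3 and 5 of 21 glutathione and thioredoxin genes, and 2 and 5 of 13 myeloma oncogenes. There were 4 and 6 of 25 ribosome biogenesis genes, 5 and 4 of 16 cell cycle inhibitors, 2 and 4 of 16 snoRNA host genes and 4 and 6 of 26 replication-dependent histones. There were 4 and 3 of 18 sterol genes, 1 and 3 of 27 proteasome subunits, 3 and 5 of 22 autophagy and lysosome genes and 0 and 3 of 11 housekeeping genes. Markers of other cell types gave 3 and 1 of 17: ALB rose in both lines and more in U266, by 2.52 and 0.49, FCGR3A and COL1A1 rose in U266 only (COL1A1 at least 1.88-fold), and VIM fell by 0.80 in U266. In the sterol list SC5D and INSIG1 differed by 0.68 and -0.79, and the second INSIG1 probe read -0.26 in U266 and -0.10 in 8226R5. PSMC4, an ATPase of the proteasome, fell by 0.63 in U266 and rose by 0.56 in 8226R5.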

How the data were processed

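Total RNA of the 8 arrays was labelled with biotin by an Illumina kit, per the labels' protocols. The submitters' processing notes name BeadStudio, lumi and limma, with no versions. The deposited values table holds log2 values of the 12 arrays with matching distributions, as found from the values; no source used here gives the authors' exact background step. A second deposited table holds the authors' background-subtracted signals in intensity units with a detection p-value per probe, per the file headers. In it 9 arrays were displaced by 1 position over 24399 probes and were realigned (Spearman correlation with the log2 values 1 afterwards); it served for detection, bounds and alternatives.

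The log2 values were used as the main values. Because signals appear to have been shifted above 0 before the log, changes of dim probes are understated. Of 47321 analysed probes, 30111 had 1 gene symbol, 8 several and 17202 none. A probe was kept if 2 or more of the 8 arrays had a detection p below 0.01 (17977 probes, of which 3999 had no symbol), and each of 10723 genes was represented by its probe of highest mean. limma 3.58.1 in R 4.3.3 fitted 1 mean per group (lmFit, eBayes, 4 residual degrees of freedom). All tests are two-sided moderated tests with Benjamini-Hochberg adjustment over all tested genes at a threshold of 0.05. Errors are standard errors of fitted log2 differences. Each gene has 1 spread over the 4 groups. Cells were seeded in duplicate, per the labels' protocols, but the 2 samples of a group are not stated to be separate cultures, so p-values measure how far apart such samples lie, which may be technical. The number of arrays limits the precision: replicates differed with an SD of 0.154 to 0.204 log2 units.

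A gene or group is called not above background where neither array of the group passed the detection p. The fold against such a group is a bound: on each array its level was taken as its own value or the dimmest detected probe's, whichever was higher. No fold is given where that bound was under 1 or both groups were not above background.

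The genes, gene lists and classes were chosen with earlier results of these data known. Genes were named by a rule: by the size of the difference between the lines, 6 genes up and 6 down in each line's own class, the 5 largest opposite differences each way, the 4 largest same-direction excesses per line, up to 2 called members per list, and a set of pathway genes whatever their result. It gave 111 measured genes, and further list members are named as examples after their values were seen. HSPA1A and MDM2 were not analysed here. In a test on simulated data for the difference over 10723 genes, the calls took in 26.9% of 67 genes given a shift of 0.5 log2 units, 77.6% of 67 given 1, 90.9% of 66 given 2, and 4 genes given none. Samples with the same replicate number did not deviate together (correlations from -0.015 to 0.010), so the fit has no replicate block. Alternatives covered background correction, scaling, filters, probe choice, the arrays fitted, the variance model, the block and leaving out each array. Promoters are from RefSeq (GRCh38.p14).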

Additional observations from a re-analysis of the deposited data

Results flagged for a closer look

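The responses of the 2 lines to the same dose differed by a test of the difference itself for 3105 of 10723 genes. Those with the largest opposite differences were, above 0, RNA18SN5 (4.57), RNA28SN5 (3.04), RNU4ATAC (3.02), OSM (2.77) and COXFA4L3 (2.58), all as log2 values of the U266 minus the 8226R5 response. The second COXFA4L3 probe rose in both lines, by 1.15 and 0.14. Below 0 they were RASD1 (-3.14), VOPP1 (-2.54), NOMO3 (-2.51), NOD2 (-2.23) and RRM2 (-2.19). NOMO3 was above background in 8226R5 with the drug only, and NOD2 in U266 controls only. RASD1 was not above background in 8226R5 controls, nor OSM in U266 controls. NOMO3, NOD2 and RASD1 therefore have no measured response in both lines, and the OSM difference is better given as at least 2.43. No explanation was tested for any of them. Groups of 2 arrays are too small for a test of single outlying arrays.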

How the results depend on the processing

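Of the 100 named genes with a called difference, 74 kept the call under every one of 20 settings in which they could be tested. Without the detection filter 20039 genes were tested and called differences fell to 1192 (517 above 0, 675 below 0), with 2329 responses in U266, 391 in 8226R5, and classes of 810 (U266 only), 95 (8226R5 only), 73 (opposite) and 22 (same direction). HOPX was then represented by another probe, which read -0.19. MYC read -1.14 (adjusted p = 0.0152) without background correction, and the cause of that change was not tested. Fitting all 12 arrays gave 270 opposite and 80 same-direction genes, and requiring detection on all 8 arrays left 176 called in neither line. Requiring a difference of at least 1 log2 unit left 170, 17, 183, 24 and 3 genes in the U266 only, 8226R5 only, opposite, same-direction and neither classes. A replicate block common to all groups gave 2883 called differences, and a block within each line gave 2638 and 76 same-direction genes; the numbers share only a label. Leaving out each array in turn gave 2057 to 2962 differences (978 to 1415 above 0, 1068 to 1547 below 0), 2512 to 3958 responses in U266 and 694 to 2234 in 8226R5. The classes then ranged over 1136 to 1606, 174 to 569, 160 to 422, 49 to 126 and 236 to 305 genes, in the order above, and a lone array was assumed to vary like the other groups. Other background corrections, scalings, probe averages and variance models gave 2979 to 3673 differences. Dim probes limit what can be seen: 211 genes of the U266 only class and 80 of the 8226R5 only class were not above background in the other line.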
